A study of Mus musculus with 72 samples.

Results

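Bile acid synthesis, conjugation and transport was followed through 31 listed genes, out of 51912 genes in a count table of mouse liver RNA-seq. Symbols were matched to Ensembl identifiers through the authors' comparison table for 30 of them and through the GENCODE M21 names for Slc51a. The list holds 5 hydroxylases and 3 ring dehydrogenases or reductases of bile acid synthesis, 5 enzymes of side chain activation, shortening and conjugation, 3 nuclear receptors, 6 canalicular exporters and flippases, 4 basolateral uptake carriers, 4 basolateral export genes and the apical uptake carrier Slc10a2. The livers came from DBA/2J and C57BL/6J mice, male (M) and female (F), fed a Low Protein, Medium Protein or Control diet from 10 weeks of age for 13 weeks. All were 23 weeks old, kept at about 22 °C and fasted for 16 h before the liver was frozen. The 12 combinations of strain, sex and diet had 6 animals each, with 1 polyA-selected, stranded library per animal and 72 libraries in all. The protein content of the diets and how the animals were assigned to them are not stated in the labels used here.

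Bile acids are made from cholesterol in hepatocytes. The classic route starts with Cyp7a1 and the alternative route with Cyp27a1 and Cyp7b1, and the products are joined to taurine or glycine, pumped into bile, taken up again in the ileum and returned to the liver by the portal blood. In the liver, bile acids bind the receptor FXR, the product of Nr1h4, which induces SHP (Nr0b2) and the bile salt export pump (Abcb11), and SHP represses Cyp7a1 and Cyp8b1. Mice, unlike humans, turn much of the pool into muricholic acids by way of Cyp2c70.

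Library totals ran from 26937177 to 38447505 expected counts, with a median of 32390194, and the 31 genes together took 0.532% to 1.05% of the counts of a library, with a median of 0.870%. Levels are CPM (counts relative to the library total after TMM scaling), and 3 values in a row are the lowest, the median and the highest animal of a group. Of the 31 genes, 30 passed the filter on low counts and entered the test of 19362 genes; Slc51a, with 0 to 9 counts per library, did not. A gene was called at an adjusted p below 0.05 over all genes tested (edgeR quasi-likelihood test, Benjamini-Hochberg), and errors of log2 fold changes are standard errors (SE). All 7 hepatocyte markers found in the table were present in every library, with Alb between 20490 and 70980 CPM, and the 9 ileal enterocyte markers varied. Fabp2 was present in every library at 33.6 to 114.9 CPM and Vil1 in every library at 0.0253 to 0.654 CPM, Fabp6 was at 0 in 72 libraries and Fgf15 in 65, and Sis, Lct, Mep1b, Cdx1 and Cdx2 were at 0 in 42 to 69 libraries and at most at 0.259 CPM. In whole liver, fewer cells of a type and less RNA per cell cannot be told apart. In 4 libraries (C57BL/6J M Control replicates 1 and 6, C57BL/6J M Medium Protein replicate 6 and DBA/2J M Control replicate 4), RNA like ribosomal RNA took 9.78% to 35.0% of counts, against at most 4.34% in the others. The labels also hold a code of a letter and a number that runs in the order of the groups, so code and group cannot be fully told apart. Titles hold a number and the letter N or R, and 12 animals, 2 in each of 6 groups, share that number with another animal of their group. What the codes, numbers and letters stand for is not stated in the labels used here, so whether such animals are independent samples was not tested.

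Per kilobase of exon, the levels of the genes spanned several orders of magnitude. Slc27a2, which activates long fatty acids and bile acid precursors to CoA esters, had the highest median over the 72 libraries at 567 CPM per kb. The uptake carrier Slco1b2 followed at 343 CPM per kb, the steroid dehydrogenase Akr1c6 at 307 CPM per kb and the bile acid CoA ligase Slc27a5 at 265 CPM per kb. At the other end stood the basolateral exporter Abcc4 at 0.571 CPM per kb and the 2 subunits of the organic solute transporter, Slc51b at 0.189 and Slc51a at 0.0220 CPM per kb. Slc51b had 488 counts over all 72 libraries, and its values below rest on a median of 4 counts per library.

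Animals of the same group differed most in Cyp7a1, the rate-limiting enzyme of the classic route. Its standard deviation within groups was 0.852 on the log2 scale, followed by Slc51b at 0.819, Nr0b2 at 0.745, Slco1a1 at 0.668 and Cyp7b1 at 0.593. The steadiest genes were Nr5a2, the nuclear receptor LRH-1, at 0.10, and the racemase Amacr at 0.109. The median over the 30 tested genes was 0.223, against 0.304 over all 19362 genes tested. In C57BL/6J males on Low Protein, for example, Cyp7a1 ran from 11.1 to 183 CPM among 6 animals.

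The first question was whether the Low Protein diet changed these genes. In C57BL/6J males, 6 of the 30 tested genes fell and 1 rose, while 9.78% of all 19362 genes were called. The 6 were enzymes of ring hydroxylation (Cyp8b1), ring dehydrogenation (Hsd3b7), ring reduction (Akr1d1), CoA activation (Slc27a5) and conjugation (Baat), and the uptake carrier Slco1a4. The median log2 fold change of the 30 genes was -0.18, against 0.010 over all genes tested.

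**Figure D1:**
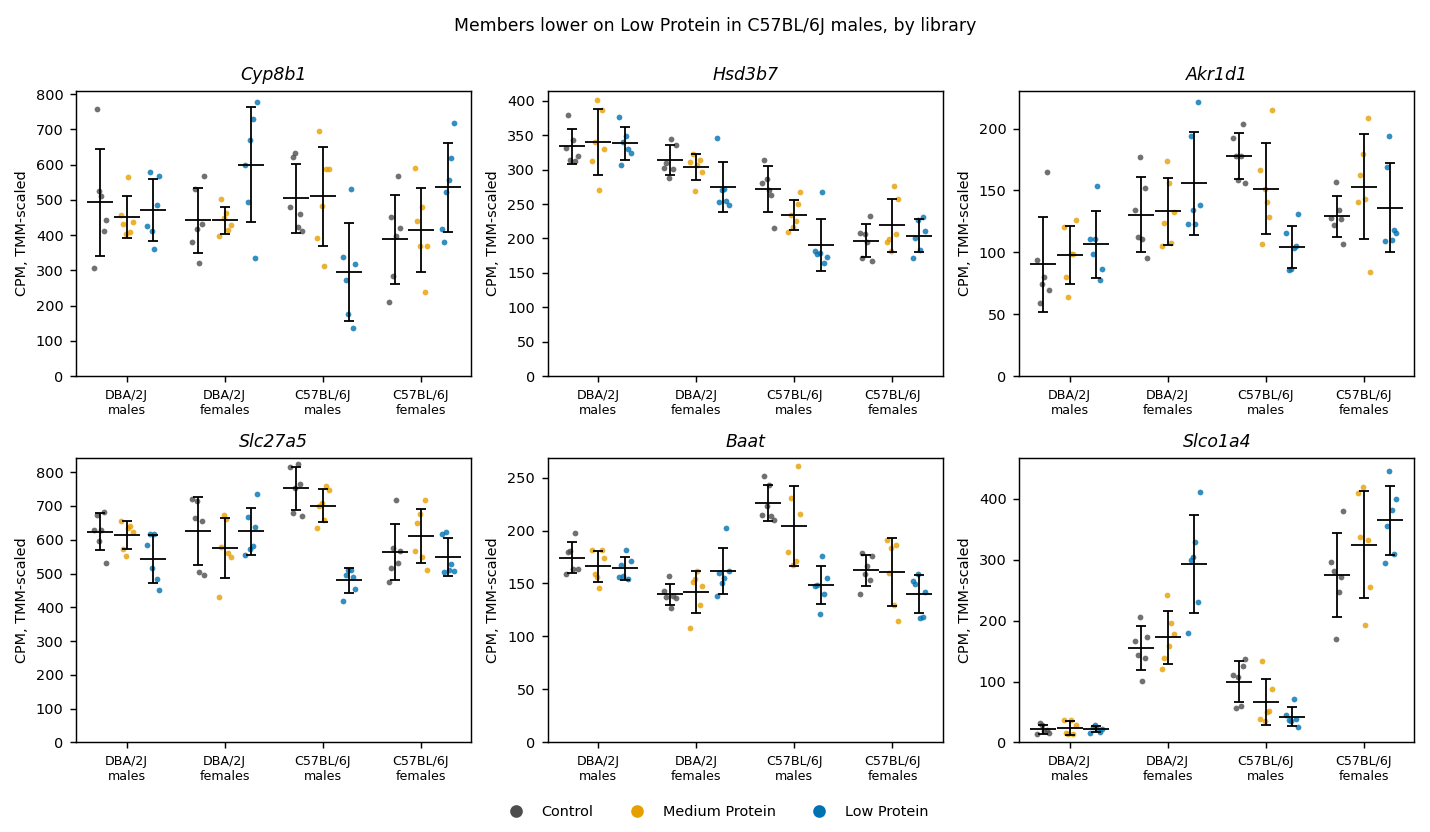
Levels of 6 bile acid genes in each library (y axes, CPM after TMM scaling, from 0), by strain and sex on the x axes and by diet in colour, with the mean (bar) and SD (whiskers) of each group of 6. In C57BL/6J males the Low Protein animals lie below all Control animals for Akr1d1, Slc27a5 and Baat, and 5 of 6 do so for Cyp8b1, Hsd3b7 and Slco1a4.

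Cyp8b1 makes the hydroxylation that leads to cholic acid. It had 137, 297 and 530.0 CPM on Low Protein, against 412, 469 and 633 CPM on Control. Of the 6 Low Protein animals, 5 lay below every Control animal and 1 lay within their range. The level was 1.71-fold lower on Low Protein (log2 fold change -0.77 ± 0.22 SE, adjusted p = 0.0156). Hsd3b7, the dehydrogenase that acts on the sterol ring after the first hydroxylation, had 165, 178 and 267 CPM on Low Protein, against 215, 276 and 314 CPM on Control. Again 5 of 6 Low Protein animals were below all Control animals, and replicate 4 stood apart at 267 CPM (log2 fold change -0.51 ± 0.10 SE, adjusted p = 0.000222). Akr1d1, which reduces the double bond of the ring, had 85.5, 104 and 131 CPM on Low Protein, against 156, 178 and 204 CPM on Control. The groups did not overlap, and the level was 1.70-fold lower (log2 fold change -0.77 ± 0.20 SE, adjusted p = 0.00533).

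Both enzymes that join bile acids to taurine or glycine fell. Slc27a5, which forms the bile acid CoA ester, had 418, 494 and 511 CPM on Low Protein, against 671, 759.8 and 823 CPM on Control. Baat, which transfers the amino acid, had 122, 148 and 176 CPM on Low Protein, against 209.6, 219 and 252 CPM on Control. Neither gene overlapped between the groups. Slc27a5 was 1.56-fold lower (log2 fold change -0.65 ± 0.10 SE, adjusted p = 3.29e-06) and Baat 1.52-fold lower (log2 fold change -0.61 ± 0.10 SE, adjusted p = 2.57e-05). The uptake carrier Slco1a4 showed the largest fold among the called genes, with 24.7, 38.3 and 71.8 CPM on Low Protein, against 57.2, 109 and 137 CPM on Control. Its groups overlapped in 1 Low Protein animal, and the level was 2.36-fold lower (log2 fold change -1.24 ± 0.27 SE, adjusted p = 0.00101).

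Abcb4, the flippase that supplies phospholipid to bile, was the gene that rose. It had 462, 535 and 648 CPM on Low Protein, against 402, 434 and 461 CPM on Control, a 1.26-fold difference (log2 fold change 0.34 ± 0.10 SE, adjusted p = 0.0211). The groups did not overlap. With library totals in place of TMM factors, the median of all genes in this comparison moved to 0.26 and the calls of the list were 3 higher and 4 lower. Of all 19362 genes, 5652 were then called, against 1894 with TMM factors. Slc27a2 and Abcc4 were called higher with library totals, and Cyp8b1 (adjusted p = 0.064) and Hsd3b7 (adjusted p = 0.0528) were not called. The call of Cyp8b1 was also lost from the compared groups alone (adjusted p = 0.0782) and without Low Protein replicate 3 or 5 (adjusted p up to 0.0756). That of Abcb4 was lost without Control replicate 5 or Low Protein replicate 4 (adjusted p up to 0.0723) and without the 4 libraries rich in RNA like ribosomal RNA (adjusted p = 0.0732).

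The other enzymes and carriers of the list were not called in C57BL/6J males. Cyp7a1 had 11.1, 98.2 and 183 CPM on Low Protein, against 80.5, 128 and 416 CPM on Control (log2 fold change -0.84 ± 0.45 SE, adjusted p = 0.251). Of the 6 Low Protein animals, 3 lay below every Control animal. Cyp27a1, the mitochondrial enzyme of the alternative route, had 183, 202 and 251 CPM on Low Protein, against 241, 264 and 282 CPM on Control (log2 fold change -0.30 ± 0.11 SE, adjusted p = 0.0573). Cyp7b1 had 68.2, 122 and 213 CPM, against 52.8, 77.2 and 158 CPM on Control (log2 fold change 0.53 ± 0.33 SE, adjusted p = 0.332). Both differences missed the threshold, although 5 of 6 Low Protein animals were below all Control animals for Cyp27a1. Cyp27a1 was called with the letter of the label code as a term (adjusted p = 0.039) or from the compared groups alone (adjusted p = 0.0301). Cyp2c70, which leads to muricholic acids, had 25.4, 30.8 and 50.5 CPM on Low Protein, against 46.9, 58.0 and 70.0 CPM on Control (log2 fold change -0.79 ± 0.27 SE, adjusted p = 0.0543). It was called by limma-voom (adjusted p = 0.0418), with the letter of the label code as a term (adjusted p = 0.0372) and from the compared groups alone (adjusted p = 0.00629). The authors' deposited table has Cyp2c70 at -0.808 (authors' adjusted p = 0.0374). Among the receptors, Nr1h4 had 86.3, 95.1 and 108 CPM on Low Protein, against 90.4, 105 and 127 CPM on Control, and Nr0b2 had 4.35, 11.2 and 28.3 CPM, against 10.1, 16.1 and 26.6 CPM. Abcb11 had 271, 299 and 429 CPM on Low Protein, against 266, 329 and 371 CPM on Control. Slc10a1, the main sodium-dependent uptake carrier (NTCP), had 317, 339 and 376 CPM, against 357, 402 and 444 CPM on Control. For these 4 genes the adjusted p lay between 0.0926 for Slc10a1 and 0.916 for Abcb11.

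The promoters of Cyp8b1 and Hsd3b7 are shown because both genes fell on Low Protein in C57BL/6J males and both windows hold a letter match to a known liver factor's motif. The sequences are the 250 bases before the start in RefSeq (GRCm38.p6), read 5′ to 3′ on the gene's strand, at chr9:121916306-121916555 (minus strand) and chr7:127800359-127800608 (plus strand). Capitals mark CAAAGTCCA (HNF4A core) and the overlapping CAAGGNCA (LRH-1 site) in Cyp8b1, and TTCNNNGAA (STAT5 site) in Hsd3b7, searched on both strands.
Cyp8b1: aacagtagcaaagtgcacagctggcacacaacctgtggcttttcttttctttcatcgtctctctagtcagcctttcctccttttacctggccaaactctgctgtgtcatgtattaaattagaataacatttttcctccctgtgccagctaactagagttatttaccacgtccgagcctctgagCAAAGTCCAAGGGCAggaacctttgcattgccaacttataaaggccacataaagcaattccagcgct
Hsd3b7: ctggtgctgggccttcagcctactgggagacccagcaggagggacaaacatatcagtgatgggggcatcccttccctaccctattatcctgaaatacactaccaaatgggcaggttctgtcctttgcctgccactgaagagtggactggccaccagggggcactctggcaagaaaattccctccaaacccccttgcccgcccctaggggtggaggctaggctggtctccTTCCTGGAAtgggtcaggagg
A promoter sequence was found for 24 of the 31 genes and not for Cyp7a1, Cyp7b1, Baat, Slc27a5, Amacr, Atp8b1 and Abcc3. Of 32817 mouse promoters of this length, 0.384% hold CAAAGTCCA, 5.53% hold CAAGGNCA and 7.01% hold TTCNNNGAA. Among the 24 genes, CAAAGTCCA is in Cyp8b1 and Cyp2c70, CAAGGNCA in Cyp8b1, Akr1c6, Nr0b2 and Slc51a, and TTCNNNGAA in Hsd3b7, Nr0b2, Slc10a1, Slco1b2 and Slc51b. GTCANTGAC, the core of the FXR inverted repeat, is in 0.32% of all promoters and in 0 of the 24. These are letter matches in one window and not shown sites of binding.

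In C57BL/6J females on Low Protein, 4 of 30 genes fell and 1 rose, while 3.25% of all genes were called. Slc10a2, the apical sodium-dependent carrier known from ileum and bile ducts, had 0.847, 1.85 and 4.37 CPM on Low Protein, against 3.24, 4.83 and 10.7 CPM on Control. Of 6 Low Protein animals, 5 lay below every Control animal, and the level was 2.48-fold lower (log2 fold change -1.31 ± 0.31 SE, adjusted p = 0.00899). It was not called by limma-voom. Of the 11 tested bile duct cell markers, 0 were called in this comparison by edgeR, and the summed level of the 13 found was 59.0, 66.5 and 120.9 CPM on Low Protein, against 51.7, 67.4 and 91.0 CPM on Control. Abcc4, which exports bile acids back to blood, had 2.85, 4.73 and 6.55 CPM on Low Protein, against 5.22, 6.64 and 11.8 CPM on Control (log2 fold change -0.67 ± 0.18 SE, adjusted p = 0.0224). The groups overlapped in 2 Low Protein animals. Atp8b1, a phospholipid flippase of the canalicular membrane, had 24.3, 28.6 and 32.0 CPM on Low Protein, against 34.5, 37.2 and 41.5 CPM on Control (log2 fold change -0.40 ± 0.084 SE, adjusted p = 0.00266). These groups did not overlap.

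Abcg8, one subunit of the biliary sterol exporter, had 46.8, 57.8 and 69.1 CPM on Low Protein, against 64.2, 75.1 and 89.4 CPM on Control in C57BL/6J females. The groups overlapped in 1 Low Protein animal (log2 fold change -0.41 ± 0.12 SE, adjusted p = 0.04). Amacr, which inverts a side chain centre before shortening, rose with 88.2, 90.4 and 94.5 CPM on Low Protein, against 71.5, 76.5 and 86.4 CPM on Control, with no overlap (log2 fold change 0.23 ± 0.065 SE, adjusted p = 0.0365). The calls of these 2 genes sat near the threshold. That of Amacr was lost without Control replicate 1, 2 or 4 or Low Protein replicate 2, 3, 4 or 5 (adjusted p up to 0.0957). That of Abcg8 was lost without Control replicate 1, 3, 4 or 5 or Low Protein replicate 1, 2, 4 or 6 (adjusted p up to 0.0936). Abcc4 was not called without Control replicate 3 or 6 or Low Protein replicate 4 or 6 (adjusted p up to 0.106). With animals of a group that share a title number summed, Amacr (adjusted p = 0.0894) and Abcc4 (adjusted p = 0.0619) were not called. Fitted on the 12 C57BL/6J female libraries of these diets alone, Atp8b1 was the 1 gene of the list still called.

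Cyp7a1 and Cyp8b1 were not called in C57BL/6J females. Cyp7a1 had 210.4, 354 and 533 CPM on Low Protein, against 77.7, 231 and 335 CPM on Control (log2 fold change 0.79 ± 0.45 SE, adjusted p = 0.376). Cyp8b1 had 382, 539.5 and 718 CPM on Low Protein, against 211, 409 and 567 CPM on Control (log2 fold change 0.46 ± 0.22 SE, adjusted p = 0.268). For Cyp7a1, 5 of 6 Low Protein animals lay above every Control animal, and for Cyp8b1 2 of 6 did. Cyp27a1 had 151, 176 and 205 CPM, against 149.9, 194 and 212 CPM on Control, and Cyp7b1 had 6.33, 8.65 and 10.5 CPM, against 3.88, 9.04 and 12.2 CPM on Control. Nr1h4 had 67.7, 88.5 and 95.8 CPM, against 64.5, 93.8 and 102 CPM on Control, and Nr0b2 had 2.42, 5.45 and 9.52 CPM, against 5.79, 7.20 and 19.1 CPM on Control. None of these 4 passed the test, with an adjusted p of at least 0.403. Abcb11 had 173, 239.9 and 345 CPM on Low Protein, against 181, 286 and 318 CPM on Control, and Slc10a1 had 252, 363 and 391 CPM, against 214, 373 and 439.7 CPM on Control.

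In DBA/2J males, 0 of 30 genes were called on Low Protein by edgeR, where 0.093% of all genes were called. At an unadjusted p below 0.05 there were 3 genes, DESeq2 called 1 (Nr5a2, log2 fold change -0.24, adjusted p = 0.0447) and limma-voom 0. Cyp7a1 had 54.0, 155 and 299 CPM on Low Protein, against 70.1, 131 and 340.4 CPM on Control, and Cyp8b1 had 360.3, 457 and 579 CPM, against 307, 477 and 757 CPM on Control. Cyp27a1 had 188, 229 and 247 CPM, against 184, 200.3 and 242 CPM on Control, and Cyp7b1 had 207, 284 and 483 CPM, against 221, 359.9 and 437 CPM on Control. All 4 hydroxylases overlapped between the diets. Nr1h4 had 92.0, 98.4 and 119.5 CPM, against 97.9, 106 and 119 CPM on Control, and Nr0b2 had 8.27, 12.8 and 22.0 CPM, against 9.05, 14.1 and 27.1 CPM on Control. Abcb11 had 345, 372 and 482 CPM, against 371, 388 and 479 CPM on Control, and Slc10a1 had 285, 299 and 339.7 CPM, against 284, 313 and 352 CPM on Control. The receptors and both carriers overlapped as well.

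In DBA/2J females, 1 of 30 genes rose on Low Protein and 0 fell, where 0.816% of all genes were called. Acox2, the peroxisomal oxidase of side chain shortening, had 201, 234 and 278 CPM on Low Protein, against 137, 177 and 189.9 CPM on Control. The groups did not overlap (log2 fold change 0.45 ± 0.11 SE, adjusted p = 0.016). The call was lost without Control replicate 5 or Low Protein replicate 4 or 6 (adjusted p up to 0.0929), with library totals (adjusted p = 0.0896) and from the compared groups alone (adjusted p = 0.0681), where Slc10a2 and Slco1a4 were called instead. Cyp7a1 had 399.7, 595 and 797 CPM on Low Protein, against 359, 425 and 641 CPM on Control (log2 fold change 0.41 ± 0.44 SE, adjusted p = 0.809), and Cyp8b1 had 334, 635 and 777 CPM, against 322, 425 and 569 CPM on Control (log2 fold change 0.44 ± 0.22 SE, adjusted p = 0.434). Neither hydroxylase passed the test. Nr0b2 had 0.884, 3.57 and 9.12 CPM on Low Protein, against 4.90, 8.76 and 17.5 CPM on Control, with overlapping ranges (log2 fold change -1.08 ± 0.42 SE, adjusted p = 0.243). Cyp27a1 had 165, 205 and 267 CPM, against 125, 177 and 208 CPM on Control, and Cyp7b1 had 10.1, 22.0 and 37.0 CPM, against 8.69, 11.4 and 31.1 CPM on Control. Neither enzyme of the alternative route was called. Nr1h4 had 83.6, 93.5 and 102 CPM, against 82.7, 88.8 and 112 CPM on Control. Abcb11 had 346, 419 and 497 CPM, against 415, 491 and 597 CPM on Control, and Slc10a1 had 344, 357 and 386 CPM, against 272, 325 and 349.6 CPM on Control.

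The Medium Protein diet gave 0 called genes of the list in each combination by edgeR. In C57BL/6J males 0.418% of all genes were called, in C57BL/6J females 0%, and in DBA/2J males and females 0.00516% each. At an unadjusted p below 0.05 there were 5 genes of the list in C57BL/6J males and 1 in each other combination. DESeq2 called 1 gene in C57BL/6J males, Cyp7b1 (log2 fold change 1.22, adjusted p = 0.0496), and 0 in the other combinations, and limma-voom called 0 in all 4. Averaged over the 4 combinations, 0 genes of the list and 0% of all genes were called by edgeR, 0 genes of the list had an unadjusted p below 0.05, and DESeq2 and limma-voom called 0 of the list. The genes that fell on Low Protein in C57BL/6J males had Medium Protein levels of 313, 535 and 696 CPM for Cyp8b1, 635, 704 and 759 CPM for Slc27a5 and 35.1, 50.6 and 134 CPM for Slco1a4. The median of Slco1a4 ran 109, 50.6 and 38.3 CPM over Control, Medium Protein and Low Protein, and that of Slc27a5 ran 759.8, 704 and 494 CPM. Both diets were set against the same Control animals.

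**Figure D2:**
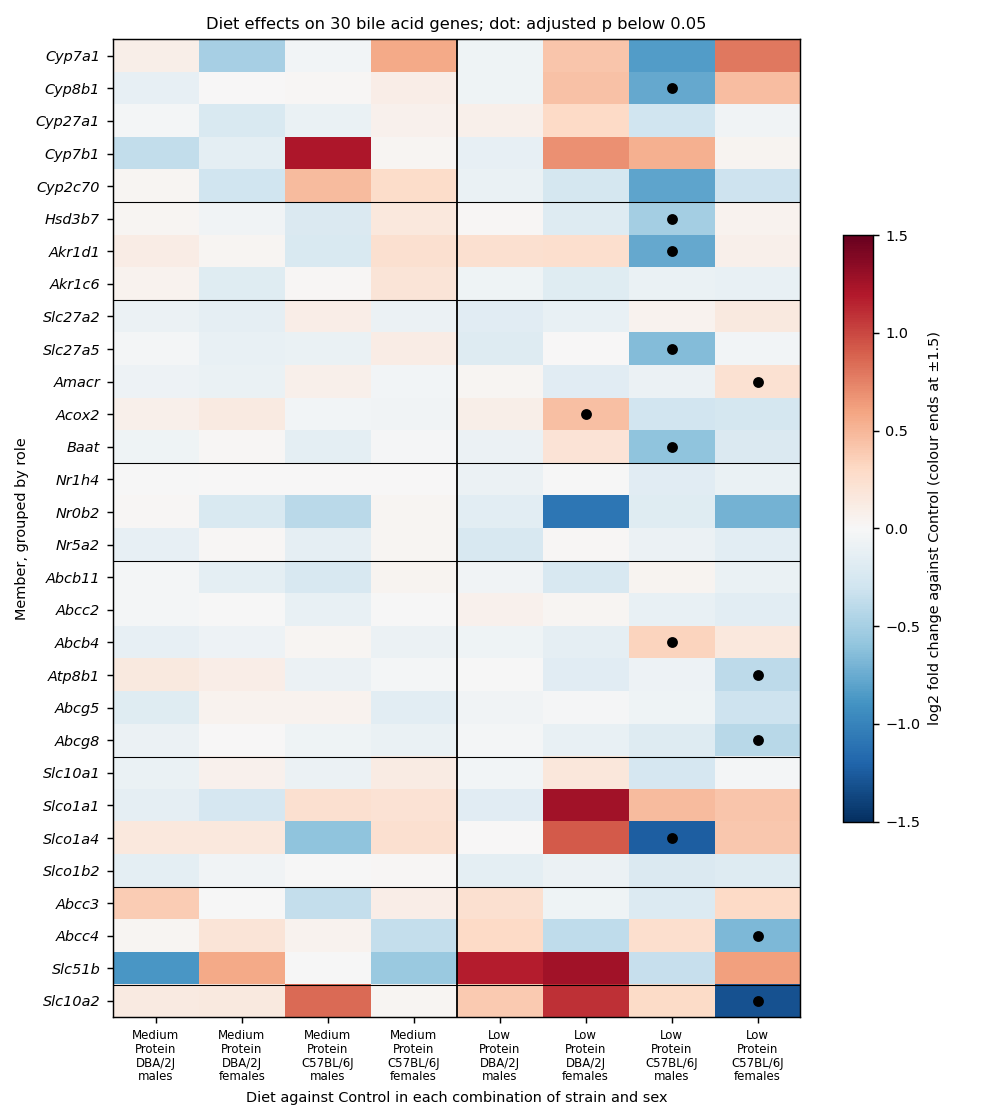
Log2 fold change against Control (colour, with the scale ending at 1.5 in either direction) of the 30 tested genes (rows, grouped by role) on Medium Protein (left) and Low Protein (right) in each combination of strain and sex (columns). A dot marks an adjusted p below 0.05; there are 7 in C57BL/6J males, 5 in C57BL/6J females and 1 in DBA/2J females on Low Protein, and 0 on Medium Protein.

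Averaged over the 4 combinations of strain and sex, Low Protein lowered 6 of 30 genes and raised 0, while 8.01% of all genes were called. They were Slc27a5 (log2 fold change -0.22 ± 0.049 SE, adjusted p = 0.00167), Baat (-0.17 ± 0.051 SE, adjusted p = 0.0221), Hsd3b7 (-0.16 ± 0.050 SE, adjusted p = 0.0331), Abcg8 (-0.18 ± 0.060 SE, adjusted p = 0.0423), Atp8b1 (-0.16 ± 0.042 SE, adjusted p = 0.00744) and Nr5a2 (-0.12 ± 0.030 SE, adjusted p = 0.00711). Nr5a2, which drives Cyp7a1 and Cyp8b1, had 47.8, 49.4 and 51.8 CPM on Low Protein, against 55.5, 56.1 and 66.2 CPM on Control in DBA/2J males. In C57BL/6J females it had 59.7, 65.4 and 68.1 CPM, against 54.9, 71.99 and 81.6 CPM on Control. For C57BL/6J males the values were 63.0, 70.4 and 81.9 CPM, against 70.8, 76.4 and 80.0 CPM on Control, and in DBA/2J females 61.6, 66.1 and 68.7 CPM, against 59.4, 65.0 and 70.0 CPM on Control. The DBA/2J male groups did not overlap and the other groups did, and the log2 fold change was -0.24 in DBA/2J males, -0.16 in C57BL/6J females, -0.092 in C57BL/6J males and 0.022 in DBA/2J females. Called singly were Slc27a5, Baat and Hsd3b7 in C57BL/6J males alone, and Atp8b1 and Abcg8 in C57BL/6J females alone. In the authors' deposited table, Slc27a5 (0.011) and Baat (0.202) were above 0 in DBA/2J females. Hsd3b7 was above 0 there in C57BL/6J females (0.048) and DBA/2J males (0.019). The other combinations of Slc27a5, Baat and Hsd3b7 were below 0. With library totals, 0 of the 6 genes of the mean effect were called and Slco1a1 was called higher. Without the filter on low counts, Hsd3b7 (adjusted p = 0.0743) and Abcg8 (adjusted p = 0.0812) were not called. Abcg8 was also lost with the letter of the label code as a term (adjusted p = 0.0567) and without the 4 libraries rich in RNA like ribosomal RNA (adjusted p = 0.156). Hsd3b7 was lost without C57BL/6J M Control replicate 2, C57BL/6J M Low Protein replicate 5, C57BL/6J F Control replicate 5, C57BL/6J F Low Protein replicate 4 or DBA/2J F Control replicate 4 (adjusted p up to 0.058), and Abcg8 was lost in 22 of the 48 fits that left out 1 library (adjusted p up to 0.0755).

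A difference of the Low Protein response by sex or by strain was tested by interaction contrasts. In C57BL/6J, the effect in males minus that in females was below 0 for 5 genes and above 0 for 2, while 4.56% of all genes were called. It was -1.65 ± 0.38 SE for Slco1a4 (adjusted p = 0.00577), -1.24 ± 0.31 SE for Cyp8b1 (adjusted p = 0.0139) and -0.61 ± 0.14 SE for Slc27a5 (adjusted p = 0.00534). Hsd3b7 (-0.56 ± 0.14 SE, adjusted p = 0.0123) and Amacr (-0.31 ± 0.092 SE, adjusted p = 0.039) also had a negative difference. The difference was positive for Slc10a2 (1.60 ± 0.42 SE, adjusted p = 0.0197) and Abcc4 (0.92 ± 0.26 SE, adjusted p = 0.0278), which fell in females. With library totals the split was 5 above and 2 below 0, and the median of all genes was 0.24. Slco1a4, Cyp8b1, Slc10a2 and Abcc4 kept their calls, Slc27a5 (adjusted p = 0.0821), Hsd3b7 (adjusted p = 0.155) and Amacr (adjusted p = 0.7) lost them, and Abcg8, Atp8b1 and Nr5a2 were called above 0 in their place. With animals of a group that share a title number summed to 1 sample, 4 of the 7 were called, and Hsd3b7, Amacr and Abcc4 were not. From the compared groups alone, Cyp8b1 (adjusted p = 0.0695), Hsd3b7 (adjusted p = 0.0618), Slc10a2 (adjusted p = 0.0719) and Abcc4 (adjusted p = 0.0575) were not called. Akr1d1 was then called below 0 (adjusted p = 0.0251). The call of Slc10a2 was lost without C57BL/6J F Control replicate 1 (adjusted p = 0.0528), that of Abcc4 without C57BL/6J F Control replicate 3 or 6 or Low Protein replicate 6 (adjusted p up to 0.0636), and that of Amacr in 14 of the 24 fits that left out 1 library (adjusted p up to 0.0876).

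In DBA/2J the Low Protein effect did not differ between the sexes at the threshold for any gene of the list or for any gene tested by edgeR (0%). At an unadjusted p below 0.05 there were 7 genes of the list, and DESeq2 and limma-voom called 0. Between the strains, the effect in DBA/2J males minus that in C57BL/6J males was above 0 for Akr1d1 (1.00 ± 0.28 SE, adjusted p = 0.0294), Hsd3b7 (0.53 ± 0.14 SE, adjusted p = 0.0234) and Baat (0.53 ± 0.14 SE, adjusted p = 0.0314), where 2.88% of all genes were called. None of the 3 was called with library totals, which gave 0 above and 2 below 0 (Abcb4 and Slc27a2), without the filter on low counts, or with animals of a group that share a title number summed (adjusted p of 0.066 for Akr1d1, 0.0698 for Hsd3b7 and 0.0874 for Baat). Hsd3b7 was also lost with the letter of the label code as a term (adjusted p = 0.0656). Akr1d1 was also lost without the 4 libraries rich in RNA like ribosomal RNA (adjusted p = 0.0565). Hsd3b7 was lost without C57BL/6J M Low Protein replicate 5 or DBA/2J M Low Protein replicate 1 (adjusted p up to 0.0549). Akr1d1 and Baat were each lost in 6 of 24 fits that left out 1 library, with an adjusted p up to 0.0795 for Akr1d1 and 0.0652 for Baat. In females the same contrast was above 0 for Slc10a2 (2.40 ± 0.43 SE, adjusted p = 0.00446) and Acox2 (0.72 ± 0.15 SE, adjusted p = 0.0173), where 0.093% of all genes were called. Slc10a2 had 6.13, 7.80 and 11.4 CPM on Low Protein, against 2.72, 3.84 and 5.33 CPM on Control in DBA/2J females, with no overlap and in the opposite order to C57BL/6J females. Within DBA/2J females the difference just missed the threshold (log2 fold change 1.09 ± 0.30 SE, adjusted p = 0.0546), and DESeq2 called it (adjusted p = 0.023). Acox2 was lost without DBA/2J F Control replicate 5 or Low Protein replicate 4 (adjusted p up to 0.0597).

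Other genes of bile acid metabolism were counted from listed groups. In C57BL/6J males on Low Protein, where 9.78% of all genes were called, 3 of 10 further bile acid enzymes rose and 1 fell. They were the oxysterol hydroxylase Cyp39a1 (log2 fold change 1.21, adjusted p = 0.00162), the peroxisomal enzymes Ehhadh (0.99, adjusted p = 0.00193) and Hsd17b4 (0.23, adjusted p = 0.0435), and the electron donor Fdxr (-0.53, adjusted p = 0.0153). Of 17 regulators, 2 fell, namely Fgfr4 (-0.52, adjusted p = 0.000356) and its partner Klb (-0.32, adjusted p = 0.0268), which receive the ileal hormone FGF15, and the xenobiotic receptor Nr1i2 rose (0.38, adjusted p = 0.0281). Of 9 detoxification genes and other carriers, Abcg2 rose (0.40, adjusted p = 0.0219) and Cyp2b10 fell (-3.60, adjusted p = 0.0245). Of 10 genes of cholesterol supply 0 were called, and of 16 clock genes 1 fell. In C57BL/6J females and in DBA/2J males and females, 0 of the further bile acid enzymes, the regulators and the cholesterol supply genes were called by edgeR. Of all genes, 3.25%, 0.093% and 0.816% were called in these comparisons, so few or no calls among so few genes are near that share. In females of both strains, Cyp3a11, which hydroxylates bile acids and drugs, rose on Low Protein, with a log2 fold change of 1.11 in C57BL/6J (adjusted p = 0.00169) and 1.33 in DBA/2J (adjusted p = 0.000351). Cyp3a11 was not called in males of either strain, but it was called for the mean of the 4 combinations (0.865, adjusted p = 1.75e-07). Its Low Protein effect was not called as different between the sexes in either strain.

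Some genes listed as zonation and blood markers were called in the same comparison of C57BL/6J males. Against 9.78% of all genes called, 6 of 8 periportal hepatocyte markers fell (median log2 fold change -1.02), of 10 pericentral markers 2 fell, and of 7 general hepatocyte markers 1 fell. The periportal markers Pck1 and Hsd17b13 were not called, and whether zonation itself changed was not tested. The summed periportal level was 4687, 4995 and 6344 CPM on Low Protein, against 4380, 7114 and 8137 CPM on Control. Of 6 red blood cell markers 4 rose, and their summed level was 168, 378 and 478 CPM on Low Protein, against 127, 164 and 259 CPM on Control. Of 10 macrophage markers, 0 were called. The part of these shifts in the bile acid genes was not tested.

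The second question was how males and females differed, over the mean of the 3 diets. In C57BL/6J, 18 of 30 genes were higher and 4 lower in males, where 42.2% of all genes were called. In DBA/2J, 13 were higher and 9 lower in males, where 39.2% of all genes were called. Both counts of lower genes hold Slc51b, whose call adds no support to them for the reason given below. With library totals the median of all genes moved to -0.24 in C57BL/6J and -0.25 in DBA/2J, and the calls were 7 higher and 9 lower in C57BL/6J and 7 higher and 16 lower in DBA/2J. The share of all genes called with library totals is not given for these 2 comparisons, so these counts are not set against it. The small positive differences of Acox2, Amacr, Slc27a2, Slc27a5, Hsd3b7 and Nr1h4 in C57BL/6J, and of Baat, Hsd3b7 and Nr1h4 in DBA/2J, then changed sign and were not called. The differences of Cyp7b1, Cyp7a1, Slco1a1, Slco1a4, Slc10a2, Abcc4, Akr1c6 and Nr0b2 kept sign and call in both strains under all alternatives, 10 in DBA/2J and 11 in C57BL/6J, and in all 36 fits that left out 1 library of the strain. Slc51b kept them too, but it passed the filter on low counts through its female libraries.

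**Figure D3:**
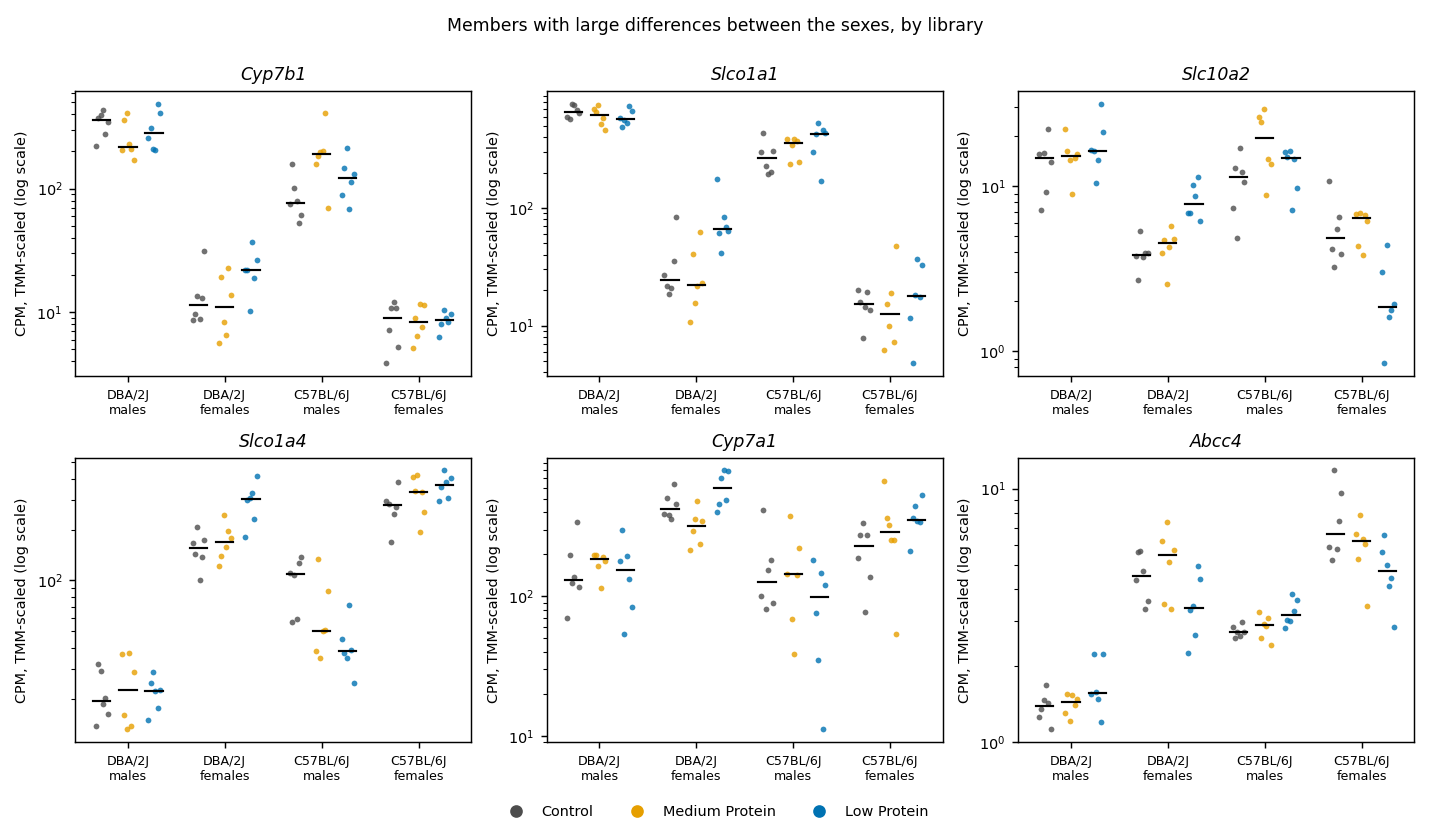
Levels of 6 bile acid genes in each library (y axes, CPM after TMM scaling, log scale), by strain and sex on the x axes and by diet in colour; the line is the median of 6 animals. Cyp7b1 and Slco1a1 are higher in every male than in any female of the same strain, and Slco1a4 is lower in every male.

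Cyp7b1, the oxysterol hydroxylase of the alternative route, had 171, 295 and 483 CPM in DBA/2J males, against 5.65, 13.6 and 37.0 CPM in DBA/2J females (18 animals each). In C57BL/6J it had 52.8, 122 and 411 CPM in males, against 3.88, 8.65 and 12.2 CPM in females. No male overlapped with a female of its strain. The level was 19.0-fold higher in males of DBA/2J (log2 fold change 4.25 ± 0.21 SE, adjusted p = 1.2e-26) and 15.4-fold higher in males of C57BL/6J (3.95 ± 0.21 SE, adjusted p = 6.25e-25). Cyp7a1, at the head of the classic route, lay the other way, with 54.0, 172 and 340.4 CPM in DBA/2J males, against 215, 429 and 797 CPM in females, and 11.1, 131 and 416 CPM in C57BL/6J males, against 54.1, 301 and 668 CPM in females. The ranges overlapped in both strains. It was 2.70-fold lower in males of DBA/2J (-1.43 ± 0.26 SE, adjusted p = 7.04e-06) and 2.12-fold lower in males of C57BL/6J (-1.08 ± 0.26 SE, adjusted p = 0.000466).

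The uptake carriers of the Slco1a family split by sex. Slco1a1 had 457, 618 and 766 CPM in DBA/2J males, against 10.7, 38.1 and 177 CPM in females, and 171, 325 and 525 CPM in C57BL/6J males, against 4.79, 15.5 and 47.9 CPM in females. Slco1a4 had 13.2, 21.2 and 37.3 CPM in DBA/2J males, against 101, 179 and 412 CPM in females, and 24.7, 54.0 and 137 CPM in C57BL/6J males, against 169, 321 and 446 CPM in females. For neither gene did the sexes overlap within a strain. Slco1a1 was 14.3-fold higher in DBA/2J males (3.83 ± 0.24 SE, adjusted p = 6.08e-22) and 18.7-fold higher in C57BL/6J males (4.23 ± 0.24 SE, adjusted p = 2.13e-23). Slco1a4 was 8.79-fold lower in DBA/2J males (-3.14 ± 0.17 SE, adjusted p = 1.9e-25) and 4.89-fold lower in C57BL/6J males (-2.29 ± 0.16 SE, adjusted p = 2.24e-19). The Slco1a genes are close paralogs, and how RSEM shared reads that match several of them was not tested.

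Slc10a2 was higher in males of both strains. It had 7.16, 15.6 and 31.3 CPM in DBA/2J males, against 2.55, 4.74 and 11.4 CPM in females (log2 fold change 1.60 ± 0.17 SE, adjusted p = 4.53e-12), and 4.83, 14.0 and 29.4 CPM in C57BL/6J males, against 0.847, 4.24 and 10.7 CPM in females (1.74 ± 0.17 SE, adjusted p = 6.07e-13). Every male lay above the median of the females of its strain, and the ranges overlapped. Its window before the start is shown because it holds 3 letter matches to one motif, TTAATNATT (HNF1 core, capitals, both strands), which is in 1.4% of all promoters and, among the 24 genes, in Slc10a2 and Nr5a2. The matches at 223 to 215 and at 221 to 213 bases before the start overlap in one stretch. The remaining match lies at 170 to 162 bases before it. The 250 bases are at chr8:5105288-5105537 (minus strand, RefSeq, GRCm38.p6).
Slc10a2: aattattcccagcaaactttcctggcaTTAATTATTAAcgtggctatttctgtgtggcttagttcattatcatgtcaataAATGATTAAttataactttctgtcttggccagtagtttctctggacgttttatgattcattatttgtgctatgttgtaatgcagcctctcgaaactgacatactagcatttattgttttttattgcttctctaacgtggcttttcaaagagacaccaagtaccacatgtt
Bile duct cell markers, counted beside it, had 1 of 11 higher and 2 lower in DBA/2J males, where 39.2% of all genes were called. In C57BL/6J males 1 was higher and 4 lower, where 42.2% of all genes were called.

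Of the basolateral export genes, Abcc4 and Slc51b were lower in males of both strains. Abcc4 had 1.12, 1.47 and 2.23 CPM in DBA/2J males, against 2.26, 4.36 and 7.41 CPM in females, with no overlap (log2 fold change -1.54 ± 0.11 SE, adjusted p = 1.39e-18). In C57BL/6J it had 2.42, 2.89 and 3.84 CPM in males, against 2.85, 5.83 and 11.8 CPM in females (-1.02 ± 0.11 SE, adjusted p = 3.54e-12), and all 18 males were below the female median. Slc51b, at a few counts per library, had 0, 0.0496 and 0.252 CPM in DBA/2J males, against 0.0254, 0.228 and 0.832 CPM in females (-1.73 ± 0.44 SE, adjusted p = 0.00112). In C57BL/6J it had 0, 0.0608 and 0.351 CPM in males, against 0.0326, 0.410 and 1.01 CPM in females (-2.20 ± 0.41 SE, adjusted p = 9.75e-06). The ranges of Slc51b overlapped in both strains. This gene stayed near the floor in males and passed the filter on low counts through its female libraries. Its test for sex therefore adds no support beyond these levels.

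Of the ring dehydrogenases and reductases, Akr1c6 had 416, 589 and 794 CPM in DBA/2J males, against 207, 341 and 509 CPM in females (log2 fold change 0.73 ± 0.11 SE, adjusted p = 1.24e-07), and 337, 495 and 650.2 CPM in C57BL/6J males, against 132, 247 and 387 CPM in females (0.97 ± 0.11 SE, adjusted p = 5.26e-11). It was higher in males of both strains, with overlapping ranges. Cyp27a1 had 184, 202 and 247 CPM in DBA/2J males, against 117, 171 and 267 CPM in females (0.25 ± 0.062 SE, adjusted p = 0.000902), and 183, 240.0 and 303 CPM in C57BL/6J males, against 149.9, 189 and 243 CPM in females (0.36 ± 0.062 SE, adjusted p = 2.33e-06). Its calls were not kept with library totals, where the differences were 0.005 in DBA/2J and 0.13 in C57BL/6J. Cyp8b1 had 307, 441 and 757 CPM in DBA/2J males, against 322, 455 and 777 CPM in females, and 137, 442 and 696 CPM in C57BL/6J males, against 211, 431 and 718 CPM in females. It was called in neither strain (-0.054 ± 0.13 SE, adjusted p = 0.77 and -0.061 ± 0.13 SE, adjusted p = 0.733).

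Among the nuclear receptors, Nr0b2 had 8.27, 13.4 and 27.1 CPM in DBA/2J males, against 0.884, 6.09 and 17.5 CPM in females (log2 fold change 1.21 ± 0.24 SE, adjusted p = 2.75e-05), and 4.35, 12.9 and 28.3 CPM in C57BL/6J males, against 2.42, 7.38 and 19.1 CPM in females (0.85 ± 0.23 SE, adjusted p = 0.00237). It was higher in males while Cyp7a1 was lower. Nr1h4 had 92.0, 103 and 121 CPM in DBA/2J males, against 78.7, 91.2 and 112 CPM in females (0.17 ± 0.056 SE, adjusted p = 0.0123), and 86.3, 102 and 132 CPM in C57BL/6J males, against 64.5, 93.8 and 105 CPM in females (0.22 ± 0.056 SE, adjusted p = 0.00105). Abcb11 had 254, 385 and 486 CPM in DBA/2J males, against 346, 459 and 597 CPM in females (-0.22 ± 0.081 SE, adjusted p = 0.0278), and 247, 292 and 429 CPM in C57BL/6J males, against 173, 270.4 and 347 CPM in females (0.23 ± 0.081 SE, adjusted p = 0.0158). The call in DBA/2J was lost without M Medium Protein replicate 4, F Control replicate 4 or F Medium Protein replicate 4 (adjusted p up to 0.0579), with library totals that in C57BL/6J was lost at a difference of 0.007, and so it was with animals of a group that share a title number summed (adjusted p = 0.0687). Slc10a1 had 252, 305 and 352 CPM in DBA/2J males, against 272, 338 and 386 CPM in females (-0.14 ± 0.057 SE, adjusted p = 0.0355), and 317, 365 and 497 CPM in C57BL/6J males, against 214, 375 and 439.7 CPM in females (0.041 ± 0.057 SE, adjusted p = 0.593). The call of Slc10a1 in DBA/2J was lost in 9 of the 36 fits that left out 1 library (adjusted p up to 0.0624). Macrophage markers were lower in C57BL/6J males, with 9 of 10 called, and 0 of 10 were called in DBA/2J. Of all genes, 42.2% were called in C57BL/6J and 39.2% in DBA/2J. Of 6 red blood cell markers, 5 were higher in C57BL/6J males and 4 in DBA/2J males. The part of these markers in the sex differences was not tested.

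Further genes of the pathway also differed by sex. Of 10 further bile acid enzymes, 5 were higher and 2 lower in DBA/2J males, where 39.2% of all genes were called, and 2 higher and 2 lower in C57BL/6J males, where 42.2% were called. The C57BL/6J share is near that of all genes. Of 9 detoxification genes and other carriers, 2 were higher and 5 lower in DBA/2J males, and 3 higher and 5 lower in C57BL/6J males. The canalicular exporter Abcg2 was higher in males (log2 fold change 2.59 in DBA/2J, adjusted p = 4.23e-40, and 1.31 in C57BL/6J, adjusted p = 7.58e-25), as was the bile acid sulfotransferase Sult2a8 (1.42, adjusted p = 2.18e-19, and 1.93, adjusted p = 2.13e-25). Cyp39a1 was lower in males (-3.99, adjusted p = 1.2e-27, and -1.28, adjusted p = 6.14e-10). In C57BL/6J males, 4 of 10 genes of cholesterol supply were higher and 3 lower, among them Sqle, an enzyme of cholesterol synthesis (2.03, adjusted p = 8.82e-11). In DBA/2J males 1 was higher and 3 lower. Of 16 clock genes, 5 were higher and 2 lower in DBA/2J males, and 7 higher and 2 lower in C57BL/6J males, and their part in the differences of the bile acid genes was not tested.

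**Figure D4:**
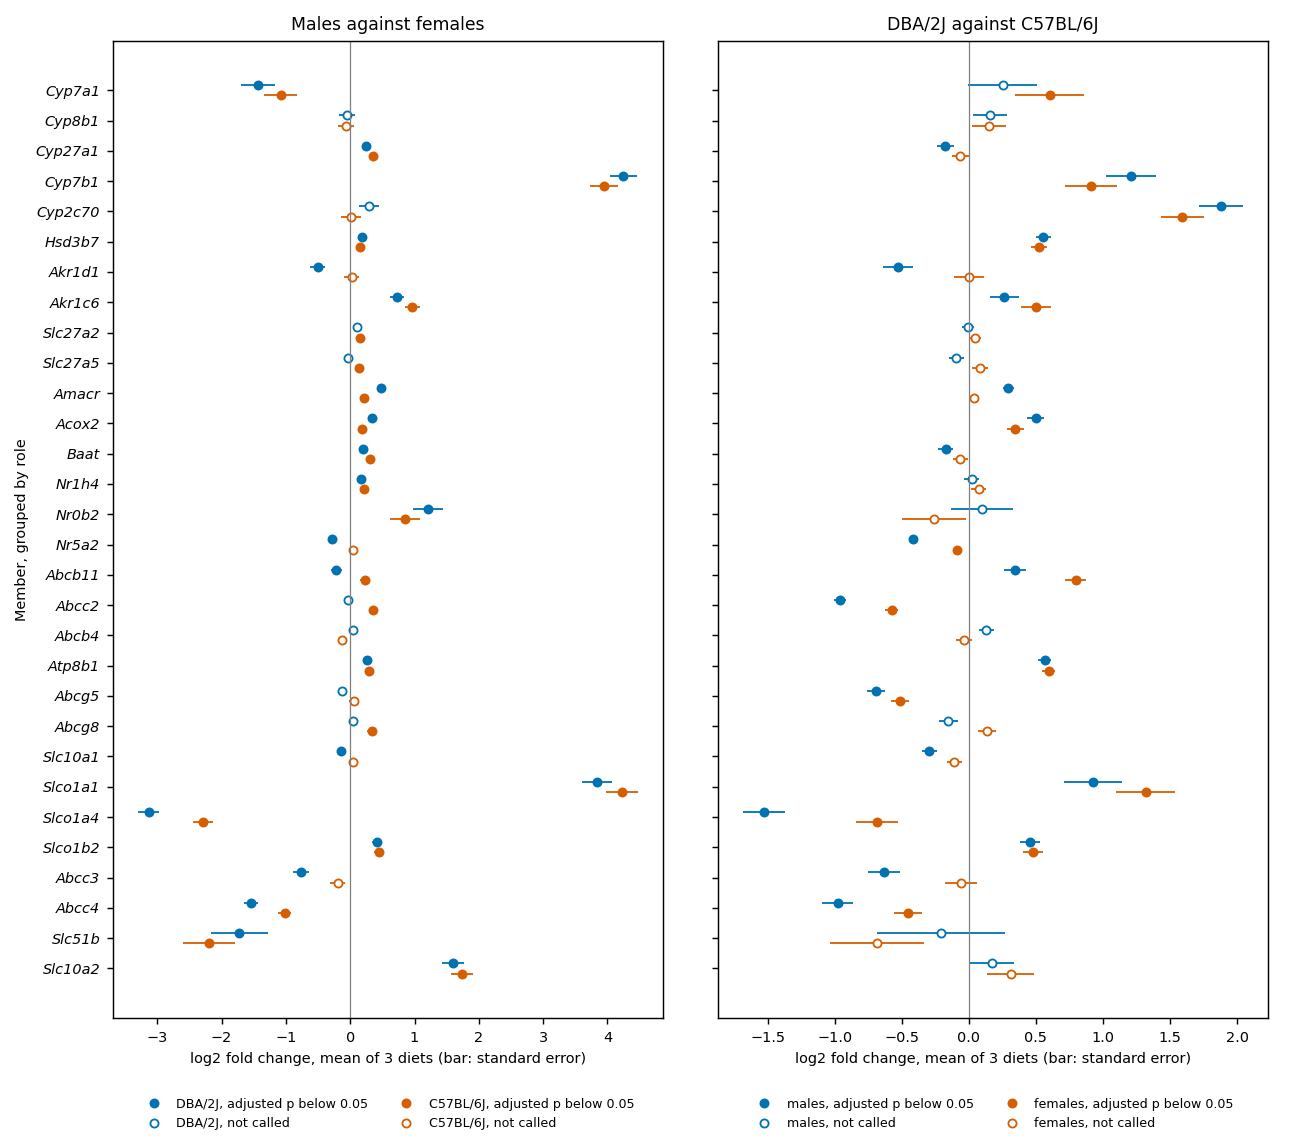
Log2 fold change (x axes, bars are standard errors) of the 30 tested genes (rows, grouped by role) between males and females within each strain (left) and between DBA/2J and C57BL/6J within each sex (right), each over the mean of 3 diets. Filled points have an adjusted p below 0.05; Cyp7b1 and Slco1a1 stand between 3.83 and 4.25 and Slco1a4 between -3.14 and -2.29 in the left panel.

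The third question was how the strains differed. In males, 10 of 30 genes were higher and 10 lower in DBA/2J than in C57BL/6J, where 51.1% of all genes were called. In females, 10 were higher and 5 lower, where 49.8% of all genes were called. The share of the list called in females, 50%, is near that of all genes. The mouse reference sequence is that of C57BL/6J, but no genome build is given for these counts. Whether reads of DBA/2J with other alleles were counted less was not tested. Of 11 bile duct cell markers, 5 were lower and 0 higher in DBA/2J males, and 5 lower and 1 higher in DBA/2J females. Of 10 macrophage markers, 1 was lower and 1 higher in DBA/2J males, and 5 were lower in DBA/2J females. Of 6 red blood cell markers, 4 were lower and 1 higher in DBA/2J males, and 4 were lower in DBA/2J females. Their part in the differences below was not tested. Of 10 further bile acid enzymes, 4 were higher and 4 lower in DBA/2J males, and 1 higher and 7 lower in DBA/2J females. Of 16 clock genes, 3 were higher and 9 lower in DBA/2J males, and 4 higher and 7 lower in DBA/2J females, and their part was not tested either.

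**Figure D5:**
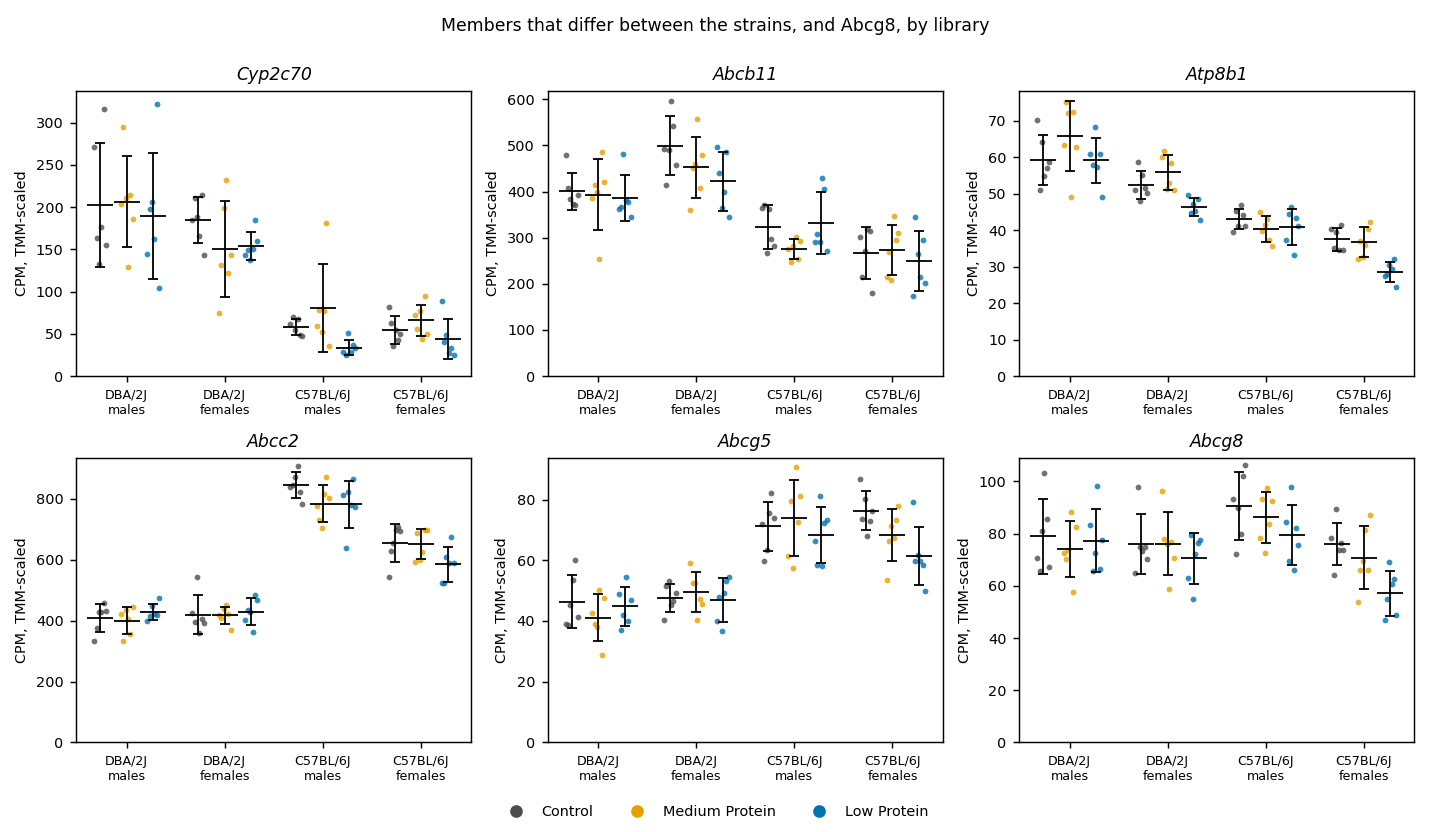
Levels of 6 bile acid genes in each library (y axes, CPM after TMM scaling, from 0), by strain and sex on the x axes and by diet in colour, with the mean (bar) and SD (whiskers) of each group of 6. Atp8b1 is higher in every DBA/2J animal than in any C57BL/6J animal of the same sex, Abcc2 is lower in every DBA/2J male, and Abcg5 differs between the strains while Abcg8 was not called.

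Cyp2c70, the enzyme of muricholic acid formation, had 104, 192 and 322 CPM in DBA/2J males, against 25.4, 51.4 and 182 CPM in C57BL/6J males. In females it had 74.2, 155 and 232 CPM in DBA/2J, against 24.6, 49.7 and 94.5 CPM in C57BL/6J. All DBA/2J animals lay above the C57BL/6J median of their sex, and 10 of 18 DBA/2J males and 17 of 18 DBA/2J females lay above every C57BL/6J animal of their sex. It was 3.68-fold higher in DBA/2J males (log2 fold change 1.88 ± 0.16 SE, adjusted p = 3.69e-16) and 3.01-fold higher in DBA/2J females (1.59 ± 0.16 SE, adjusted p = 1.93e-13). Its window before the start, at chr19:40187287-40187536 (minus strand, RefSeq, GRCm38.p6), is shown because it and Cyp8b1 are the 2 genes of the list that hold CAAAGTCCA (capitals). In Cyp2c70 the match lies 64 to 56 bases before the start, and in Cyp8b1 67 to 59 bases before it.
Cyp2c70: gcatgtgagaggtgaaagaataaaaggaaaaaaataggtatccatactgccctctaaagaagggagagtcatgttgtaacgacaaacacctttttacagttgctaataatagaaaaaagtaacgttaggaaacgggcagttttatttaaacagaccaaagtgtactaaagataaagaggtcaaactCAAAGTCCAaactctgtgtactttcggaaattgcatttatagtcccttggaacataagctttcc

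Cyp7b1 and the Slco1a carriers also differed by strain. Cyp7b1 was 2.31-fold higher in DBA/2J males (log2 fold change 1.21 ± 0.19 SE, adjusted p = 1.39e-07) and 1.88-fold higher in DBA/2J females (0.91 ± 0.20 SE, adjusted p = 7.54e-05). Slco1a1 was 1.90-fold higher in DBA/2J males (0.93 ± 0.21 SE, adjusted p = 0.000211) and 2.49-fold higher in DBA/2J females (1.32 ± 0.22 SE, adjusted p = 6.71e-07), while Slco1a4 was 2.89-fold lower in DBA/2J males (-1.53 ± 0.16 SE, adjusted p = 6.03e-13) and 1.61-fold lower in DBA/2J females (-0.69 ± 0.15 SE, adjusted p = 0.000134). The strains overlapped for each of these 3 genes, whose ranges are those given for the sexes. Cyp7a1 was called in females (0.60 ± 0.26 SE, adjusted p = 0.0443) and not in males (0.25 ± 0.26 SE, adjusted p = 0.433), and the difference between these effects was not called (-0.35 ± 0.36 SE, adjusted p = 0.551). The female call was kept in 17 of the 36 fits that left out 1 library (adjusted p up to 0.0719).

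At the canalicular membrane, Abcc2, the exporter of conjugated organic anions, had 334, 423 and 473 CPM in DBA/2J males, against 638, 814 and 907 CPM in C57BL/6J males, with no overlap (log2 fold change -0.96 ± 0.048 SE, adjusted p = 1.66e-27). In females it had 358, 421 and 544 CPM in DBA/2J, against 523, 628 and 709 CPM in C57BL/6J (-0.57 ± 0.048 SE, adjusted p = 7.91e-17), and 17 of 18 DBA/2J females lay below every C57BL/6J female. Atp8b1 had 49.0, 60.9 and 75.2 CPM in DBA/2J males, against 33.1, 41.4 and 47.0 CPM in C57BL/6J males (0.57 ± 0.048 SE, adjusted p = 2.72e-16), and 42.8, 50.9 and 61.7 CPM in DBA/2J females, against 24.3, 34.5 and 42.3 CPM in C57BL/6J females (0.59 ± 0.048 SE, adjusted p = 3.45e-17). The strains did not overlap in either sex. The bile salt export pump Abcb11 was higher in DBA/2J males (0.35 ± 0.081 SE, adjusted p = 0.000232) and DBA/2J females (0.80 ± 0.081 SE, adjusted p = 3.85e-13), with overlapping ranges in both sexes. Of the basolateral exporters, Abcc4 was lower in DBA/2J males (-0.98 ± 0.12 SE, adjusted p = 5.15e-11, no overlap) and DBA/2J females (-0.46 ± 0.10 SE, adjusted p = 0.000184), and Abcc3 had 88.2, 183 and 266 CPM in DBA/2J males, against 118, 303 and 413 CPM in C57BL/6J males (-0.63 ± 0.12 SE, adjusted p = 7.99e-06).

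The remaining listed genes that are always given showed smaller strain differences. Cyp27a1 was lower in DBA/2J males (-0.17 ± 0.062 SE, adjusted p = 0.0142) and not called in females (-0.063 ± 0.062 SE, adjusted p = 0.418). Slc10a1 was lower in DBA/2J males (-0.29 ± 0.057 SE, adjusted p = 1.03e-05) and not called in females (-0.11 ± 0.057 SE, adjusted p = 0.104). Cyp8b1, Nr1h4 and Nr0b2 were called in neither sex, with adjusted p-values between 0.292 and 0.764. The other called genes had absolute log2 fold changes between 0.086 and 0.56. With library totals, Cyp27a1 in males was not called.

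Abcg5 and Abcg8 encode both subunits of the biliary sterol exporter and start head to head, 110 bases apart, on chromosome 17 (starts at 84683011 and 84683121, GRCm38.p6). RefSeq has a second start of Abcg8 at 84676302. Abcg5 had 28.6, 42.3 and 60.1 CPM in DBA/2J males, against 57.5, 72.4 and 90.7 CPM in C57BL/6J males (log2 fold change -0.69 ± 0.069 SE, adjusted p = 1.19e-13), and 36.7, 48.4 and 59.0 CPM in DBA/2J females, against 49.97, 69.7 and 86.7 CPM in C57BL/6J females (-0.51 ± 0.068 SE, adjusted p = 2.37e-09). Abcg8 was called in neither sex (-0.15 ± 0.069 SE, adjusted p = 0.0616 and 0.14 ± 0.069 SE, adjusted p = 0.0954). The log2 ratio of Abcg5 to Abcg8 was -0.81 ± 0.11 in DBA/2J males, against -0.27 ± 0.13 in C57BL/6J males, and -0.63 ± 0.11 in DBA/2J females, against 0.023 ± 0.22 in C57BL/6J females (mean ± SD, n = 18 each). The difference was -0.54 in males and -0.65 in females. This ratio was chosen after the values of both genes were seen, so it is given with no test. The window before the start of Abcg5, which holds the start of Abcg8 and none of the 5 motifs, is at chr17:84683012-84683261 (minus strand, RefSeq, GRCm38.p6).
Abcg5: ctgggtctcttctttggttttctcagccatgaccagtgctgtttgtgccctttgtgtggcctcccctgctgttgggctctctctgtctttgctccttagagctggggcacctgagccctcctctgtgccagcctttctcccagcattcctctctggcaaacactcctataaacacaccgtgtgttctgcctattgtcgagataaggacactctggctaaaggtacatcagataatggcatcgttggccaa

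The sex difference itself differed between the strains for 9 of 30 genes, where 20.2% of all genes were called. Male minus female, DBA/2J minus C57BL/6J, the difference was -0.84 ± 0.22 SE, adjusted p = 0.00309 for Slco1a4, -0.57 ± 0.17 SE, adjusted p = 0.0102 for Abcc3 and -0.53 ± 0.16 SE, adjusted p = 0.0114 for Akr1d1. Abcc4 (-0.52 ± 0.15 SE, adjusted p = 0.0108), Abcb11 (-0.45 ± 0.12 SE, adjusted p = 0.0027), Abcc2 (-0.39 ± 0.067 SE, adjusted p = 1.42e-05), Nr5a2 (-0.33 ± 0.049 SE, adjusted p = 6.16e-07) and Abcg8 (-0.29 ± 0.10 SE, adjusted p = 0.0279) were also below 0. Amacr alone was above 0 (0.26 ± 0.053 SE, adjusted p = 0.00024). Abcb11 was higher in males than in females of C57BL/6J and lower in males of DBA/2J. Abcg8 was not called without DBA/2J F Control replicate 2 (adjusted p = 0.0551).

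Pairs of genes were compared by how animals deviated from the mean of their own group, on the log2 scale, over 72 libraries and 10 pairs. Each pair was tested by two-sided permutation, and p-values were adjusted over the 10 pairs. Cyp7a1 and Cyp8b1 deviated together, with a Pearson r of 0.515 (permutation p = 0.00033, adjusted p = 0.000825) and a Spearman rho of 0.452 (p = 0.00049, adjusted p = 0.00122). For this pair r was 0.642 within males and 0.328 within females. Slc27a5 and Baat gave r = 0.512 (permutation p = 3e-05, adjusted p = 1e-04) and rho = 0.517 (p = 2e-05, adjusted p = 6.67e-05), with r = 0.298 within males and 0.627 within females. Slco1a1 and Cyp7b1 gave r = 0.556 and rho = 0.585, and Abcg5 and Abcg8 gave r = 0.744 and rho = 0.740. For these 2 pairs each permutation p was 1e-05, the smallest that 100000 resamples can give, and each adjusted p was 5e-05. Without the 2 animals farthest from the median of the first gene, r was 0.466 for Cyp7a1 and Cyp8b1, 0.475 for Slc27a5 and Baat, 0.593 for Slco1a1 and Cyp7b1, and 0.735 for Abcg5 and Abcg8.

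The receptor genes were paired with known targets of their pathway. Nr0b2 and Cyp7a1 gave r = -0.23 (permutation p = 0.0801, adjusted p = 0.134) and rho = -0.18 (p = 0.153, adjusted p = 0.219), and Nr0b2 and Cyp8b1 gave r = -0.23 (p = 0.128, adjusted p = 0.183) and rho = -0.26 (p = 0.0546, adjusted p = 0.091). Nr1h4 gave r = -0.040 (permutation p = 0.746, adjusted p = 0.774) and rho = -0.095 (p = 0.46, adjusted p = 0.511) with Nr0b2. With Abcb11 it gave r = -0.13 (permutation p = 0.364, adjusted p = 0.455) and rho = -0.14 (p = 0.293, adjusted p = 0.366). The clock output gene Dbp and Cyp7a1 gave r = -0.032 (permutation p = 0.774, adjusted p = 0.774) and rho = -0.011 (p = 0.928, adjusted p = 0.928). Slco1a1 and Slco1a4 gave r = -0.21 (permutation p = 0.0475, adjusted p = 0.095) and rho = -0.27 (p = 0.0231, adjusted p = 0.0462), with r = -0.51 within males and -0.088 within females. None of these 6 pairs passed the adjusted test by Pearson's r, and Slco1a1 with Slco1a4 passed it by Spearman's rho.

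The authors' deposited table holds Low Protein comparisons of 17575 genes, 30 of them of the list, and its fold changes are read here as Low Protein over Control, because the called genes then have the signs found from the counts. At the authors' adjusted p below 0.05, the authors' deposited table has 1 gene of the list higher and 7 lower in C57BL/6J males, 1 higher and 3 lower in C57BL/6J females, 0 in DBA/2J males and 2 higher in DBA/2J females. Of all its genes, the authors' deposited table has 10.9%, 4.17%, 0.137% and 1.07% past that threshold in these 4 comparisons.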

How the data were processed

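Liver RNA was measured in 72 libraries, 6 in each of 12 groups of strain, sex and diet, taken from the labels, and sequenced on 2 lanes that were merged, per the labels' protocols. The authors deposited expected counts per gene, made with RSEM per the submitters' processing notes, of which 11.6% were not whole and were rounded here. The authors' deposited comparison table holds log2 fold changes and p-values, and its other statistics are a score that was not used; edgeR, limma and R 3.4.3 are named in the submitters' processing notes. No aligner or genome build is given in the sources used here. Of 51912 genes, 19362 passed filterByExpr. Counts were scaled by TMM and fitted with edgeR 4.0.16 (quasi-likelihood, 12 group means, 60 residual degrees of freedom) in R 4.3.3, 19 comparisons were drawn from this fit, and p-values were adjusted over all genes within each comparison by Benjamini-Hochberg at 0.05. The fit was tested on simulated data.

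The 31 genes and the further lists were chosen with earlier results of these data known. Genes given in full were those called for diet, the 8 largest of each sex or strain comparison, and Cyp7a1, Cyp8b1, Cyp27a1, Cyp7b1, Abcb11, Slc10a1, Nr1h4 and Nr0b2. Pairs were tested by two-sided permutation with 100000 resamples. Alternatives were RLE factors, library totals, no filter, DESeq2 1.42.0, limma-voom (limma 3.58.1), the compared groups alone, the letter of the label code or of the title as a term (their meaning is not stated), 4 libraries left out, and each library left out in turn. After the data were seen, animals of a group that share a title number were also summed (66 samples), and the title number was taken as a block for sex in C57BL/6J. Columns of values with no sample numbered 0. Whether animals of a group shared a cage or litter is not given in the sources used here. Some genes of the further lists are not reported here.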

Additional observations from a re-analysis of the deposited data

Results flagged for a closer look

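Among 356 sets of 6 animals (30 genes, groups with a spread), 17 held 1 animal far from the other 5, in 13 libraries and 11 genes. That is 4.78% of the sets, and chance flags about 1 in 20. In DBA/2J males on Medium Protein, replicate 4 stood apart in 3 genes. It had 115 CPM of Cyp7a1 (others 166 to 199), 564 CPM of Cyp8b1 (others 404 to 457) and 254 CPM of Abcb11 (others 386 to 486). In C57BL/6J females on Control, replicate 1 was low in 3 genes. It had 64.5 CPM of Nr1h4 (others 90.6 to 102), 214 CPM of Slc10a1 (others 346 to 439.7) and 158 CPM of Abcc3 (others 272 to 363). The call of Slc10a2 for the sex difference of the Low Protein effect in C57BL/6J was lost without this library.

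Hsd3b7 was high at 267 CPM in C57BL/6J M Low Protein replicate 4 and at 346 CPM in DBA/2J F Low Protein replicate 1. Abcb11 was high at 482 CPM in DBA/2J M Low Protein replicate 3 and at 479 CPM in DBA/2J M Control replicate 1. Slco1b2 was high at 1223 CPM in C57BL/6J M Low Protein replicate 3 and low at 867 CPM in C57BL/6J M Medium Protein replicate 2. Cyp27a1 was low at 117 CPM in DBA/2J F Medium Protein replicate 1, and Abcc3 at 106 CPM in DBA/2J M Medium Protein replicate 2. Slc10a1 was low at 252 CPM in C57BL/6J F Low Protein replicate 1. Cyp7b1 was high at 31.1 CPM and Abcg8 at 98 CPM in DBA/2J F Control replicates 6 and 2.

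The other results listed here are effects that differed between sexes or strains by an interaction test (edgeR, adjusted over all genes). The Low Protein effect in C57BL/6J males minus that in females was -1.65 for Slco1a4, -1.24 for Cyp8b1, -0.61 for Slc27a5, -0.56 for Hsd3b7, -0.31 for Amacr, 0.92 for Abcc4 and 1.60 for Slc10a2 on the log2 scale. The effect in DBA/2J minus that in C57BL/6J was 1.00 for Akr1d1, 0.53 for Hsd3b7 and 0.53 for Baat in males, and 2.40 for Slc10a2 and 0.72 for Acox2 in females. The sex difference in DBA/2J minus that in C57BL/6J was -0.84 for Slco1a4, -0.57 for Abcc3, -0.53 for Akr1d1, -0.52 for Abcc4, -0.45 for Abcb11, -0.39 for Abcc2, -0.33 for Nr5a2, -0.29 for Abcg8 and 0.26 for Amacr.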

How the results depend on the processing

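Of 1212 values of called genes under alternatives that kept all or most libraries, 1115 kept direction and call, 88 kept direction and lost the call, and 9 reversed, all with library totals in place of TMM factors. The reversed sex differences were -0.042 for Acox2, -0.015 for Amacr, -0.080 for Slc27a2, -0.088 for Slc27a5, -0.071 for Hsd3b7 and -0.007 for Nr1h4 in C57BL/6J, and -0.050 for Baat, -0.055 for Hsd3b7 and -0.072 for Nr1h4 in DBA/2J. Library totals changed the number of called bile acid genes to 2 (5 with TMM) for Low Protein in C57BL/6J females, 0 (1 in the reported fit) in DBA/2J females, 1 (6 in the reported fit) for the mean Low Protein effect and 1 (2 in the reported fit) for the strain difference of the Low Protein effect in females. Without the filter there were 3 for Low Protein in C57BL/6J females and 0 (3 in the reported fit) for the strain difference of the effect in males. With the letter of the label code as a term there were 3 for Low Protein in C57BL/6J females and 2 in DBA/2J females. From the compared groups alone there were 1 in C57BL/6J females, 2 in DBA/2J females, 4 (7 in the reported fit) for the sex difference of the effect in C57BL/6J and 1 for its strain difference in females. DESeq2 called 1 for Low Protein in DBA/2J males, 3 in DBA/2J females, 1 for Medium Protein in C57BL/6J males and 5 for the strain difference of the Low Protein effect in males, and limma-voom called 2 for Low Protein in DBA/2J females. With animals of a group that share a title number summed to 1 sample each, there were 3 for Low Protein in C57BL/6J females, 2 in DBA/2J females, 4 for the sex difference of the effect in C57BL/6J and 0 for its strain difference in males. The cause was not tested. RLE factors, the title letter as a term and the removal of 4 libraries rich in RNA like ribosomal RNA left each count within 1.5 times its value.

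Over all genes, Low Protein called 1894 in C57BL/6J males, against 5652 with library totals and 1258 without the filter, and 629 in C57BL/6J females, against 295 with library totals, 337 without the filter and 87 from the compared groups alone. In DBA/2J females it called 158, against 274 by DESeq2, 102 without the filter, 75 from the compared groups alone and 69 with library totals, and in DBA/2J males 18, against 43 by DESeq2, 12 without the filter, 9 without the 4 libraries and 0 from the compared groups alone. The mean effect called 1551, against 2419 with library totals and 993 without the filter.

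Leaving out 1 library at a time, 4070 of 4224 values of called genes kept their call, 154 lost it and 0 reversed. The number of called bile acid genes ran from 6 to 7 for Low Protein in C57BL/6J males, 2 to 5 in C57BL/6J females and 0 to 3 in DBA/2J females, and was 0 throughout in DBA/2J males. For Medium Protein it ran from 0 to 1 in C57BL/6J males and was 0 in the others. It ran from 4 to 7 for the mean Low Protein effect, 20 to 23 for sex in C57BL/6J and 21 to 23 in DBA/2J, 19 to 22 for strain in males and 13 to 16 in females, 8 to 10 for the strain difference of the sex effect, 5 to 8 for the sex difference of the Low Protein effect in C57BL/6J, and 1 to 4 in males and 1 to 3 in females for its strain difference. No title number recurs between the diets of a strain and sex. In C57BL/6J 17 pairs of a male and a female share a number, with correlations of their deviations from group means between -0.09 and 0.113, and with the number as a block 18 genes were called for sex (22 in the reported fit). The 6 pairs that share a number within a group had a median correlation of -0.137, against -0.215 for the 84 other pairs of those groups. The planned definition of RNA like ribosomal RNA, which holds 7SL RNA genes, was not run, since 65 of 72 libraries exceeded 5%; the version used, with 4 libraries, was chosen after the data were seen. Depth limits Slc51a and Slc51b.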
